A study of Mus musculus with 12 samples.

Results

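The human SOD1G93A transgene was compared with its absence in the spinal cord of mice that carry Plekhg5, using 6 of the 12 libraries of the series: 3 from Plekhg5+/+ SOD1G93A mice and 3 from Plekhg5+/+ mice without the transgene. The libraries were chosen by genotype label alone, and all genes of the count table were examined. SOD1G93A is a human SOD1 gene with a mutation of familial amyotrophic lateral sclerosis (ALS), a disease in which motoneurons degenerate. Plekhg5 encodes a guanine nucleotide exchange factor of neurons that acts in synaptic vesicle autophagy. The other 6 libraries came from Plekhg5-/- mice and Plekhg5-/- SOD1G93A mice, also 3 each, and serve here as a second setting for the same transgene. In the main fit the spread of each gene was estimated from all 12 libraries. All mice were 7 months old, and RNA was taken from spinal cord tissue as a whole, so that fewer cells of a type and less RNA per cell cannot be told apart. Libraries are numbered 1 to 3 within each genotype. Y-linked transcripts were present in 3 of 3 Plekhg5+/+ libraries and in 2 of 3 Plekhg5+/+ SOD1G93A libraries.

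In the cord of such mice, resident macrophages called microglia are known to leave a resting state and to take up a phagocytic, lysosome-rich state that depends on the receptor Trem2. Astrocytes respond with intermediate filaments and complement, and motoneurons lose their connection to muscle before they die.

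The 6 libraries held between 30415643 and 34656751 counts each. Human SOD1 stood at 1.10, 1.64 and 0.153 CPM (counts scaled to a common library size with TMM factors) in Plekhg5+/+ mice and at 4421, 4919 and 5638 CPM in Plekhg5+/+ SOD1G93A mice. Mouse Sod1, the endogenous gene on chromosome 16, was at 183, 147 and 144 CPM without the transgene and at 148, 154 and 174 CPM with it (log2 fold change 0.01, SE 0.11, adjusted p = 0.983). Plekhg5 lay at 19.4 to 25 CPM across all 6 libraries, compared with 3.28 to 4.72 CPM in the 6 Plekhg5-/- libraries. Both genotype labels were thus matched by the counts in every library. The tissue label was matched by spinal cord transcripts such as the motoneuron gene Chat, at 19.6 to 32.6 CPM, and the myelin gene Mbp, at 11700 to 13860 CPM. Transcripts of neighbouring tissue also varied: the summed level of 6 skeletal muscle genes was 156 CPM in Plekhg5+/+ replicate 3 and 81 CPM in Plekhg5+/+ SOD1G93A replicate 3, against 2.56 to 6 CPM in the other 4 libraries. The summed level of 10 Schwann cell genes, which mark nerve roots, was 518 and 570 CPM in Plekhg5+/+ replicates 1 and 2 and between 261 and 420 CPM in the other 4.

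Of 45906 genes in the table, 20155 had enough counts to be tested. The transgene changed 498 of them (2.47% of the genes tested) at an adjusted p under 0.05 in edgeR's quasi-likelihood test, 422 higher (2.09%) and 76 lower (0.377%). In all 498 the 3 libraries with the transgene did not overlap with the 3 without it, which the choice by p on these libraries favours. Among all genes tested, 11.6% were higher and 9% were lower without overlap. At an unadjusted p under 0.05 there were 3659 genes (18.2%), 10.6% higher and 7.51% lower. These shares over all genes tested are the measure for the counts of the gene lists below. The median log2 fold change of all genes tested was -0.001. Increases were larger than decreases: the called genes that rose had a median log2 fold change of 1.09, with 241 over 1 log2 unit and 61 over 2 log2 units, while those that fell had a median of -0.49, with 8 and 2 past these sizes. Protein-coding genes made up 405 of the 422 and 62 of the 76. The plot of all genes shows the increases reaching across the range of levels.

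**Figure D1:**
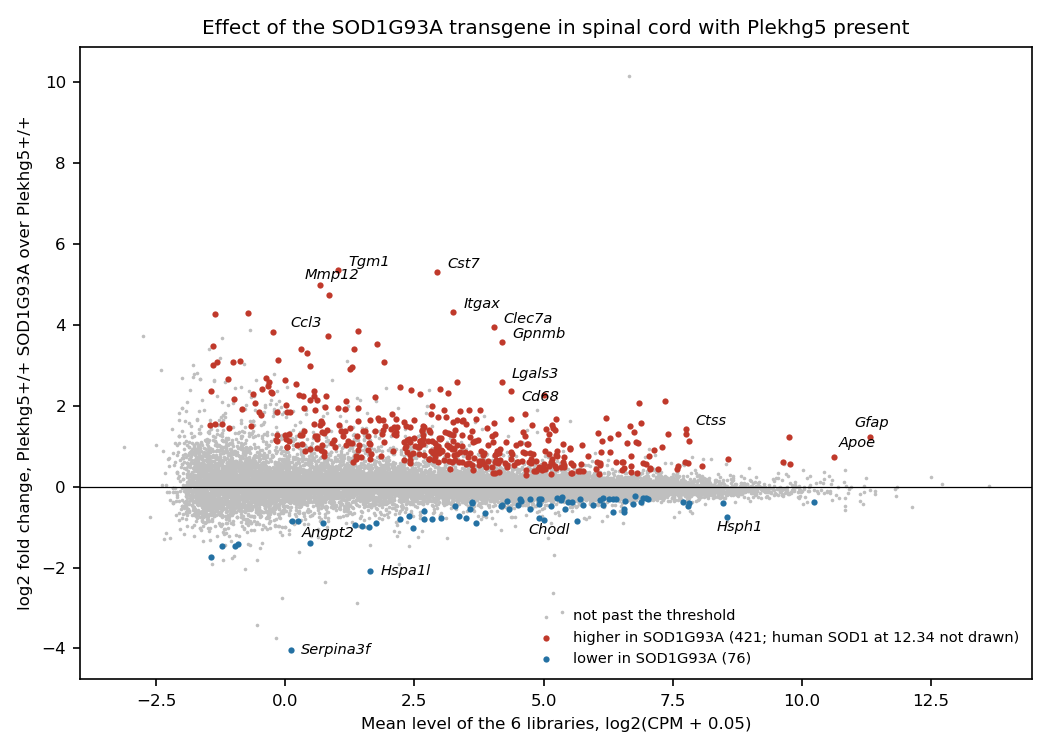
Each point is 1 tested gene, with the mean level of the 6 libraries as log2(CPM + 0.05) on the horizontal axis and the log2 fold change of Plekhg5+/+ SOD1G93A over Plekhg5+/+ on the vertical axis. Red points (higher) reach a log2 fold change of 5.36 for Tgm1, with human SOD1 left out, and blue points (lower) lie mostly within 1 log2 unit of the zero line. The grey point near 10 is Xist, named after its value was seen and expressed in the only library of the 6 that lacks Y-linked transcripts.

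The number of calls depended on single libraries. Without Plekhg5+/+ replicate 1 there were 4 calls and without Plekhg5+/+ replicate 2 there were 2, whereas leaving out Plekhg5+/+ replicate 3 left 462, of which 275 were higher and 187 lower. Without Plekhg5+/+ SOD1G93A replicate 1, 2 or 3 there were 215, 768 and 598 calls, and a fit of the 6 libraries alone called 3 genes. None of the 56 gene lists examined held more than 1 call without Plekhg5+/+ replicate 1 or without Plekhg5+/+ replicate 2. In each of these fits, all 498 genes kept their direction and an unadjusted p under 0.05. The direction was set in advance, since the groups did not overlap. The genes were also chosen for a small p on these libraries, so this is no independent check. Plekhg5+/+ SOD1G93A replicate 1 was the highest of its group for 400 of the 422 genes that rose: their median ratio to the Plekhg5+/+ mean was 2.91 in replicate 1, 1.75 in replicate 2 and 1.73 in replicate 3.

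Among genes with a mean of at least 1 CPM, the largest increases were in products of phagocytes. Mmp12, a macrophage metalloelastase (chromosome 9, 7344397 to 7360461, GRCm38.p6), was at 0.087, 0.157 and 0.0306 CPM without the transgene and at 4.72, 2.57 and 1.74 CPM with it (log2 fold change 4.99, SE 0.49, adjusted p = 0.00184). Cst7, which encodes the protease inhibitor cystatin F, was at 0.522, 0.220 and 0.367 CPM and at 32.1, 6.80 and 5.70 CPM (5.30, SE 0.77, adjusted p = 0.0125). In both genes every transgenic library lay above every control, and replicate 1 was the highest of the transgenic libraries. Itgax, which encodes the integrin CD11c, rose from 1.16, 0.944 and 0.613 CPM to 39, 9.47 and 5.76 CPM (4.31, SE 0.70, adjusted p = 0.0171). Clec7a, which encodes the receptor Dectin-1, rose from 2.00, 1.54 and 2.45 CPM to 63.2, 17.0 and 11.7 CPM (3.93, SE 0.62, adjusted p = 0.0165). For both receptors even the lowest transgenic library lay above every control. Gpnmb, a lysosome-related glycoprotein, rose from 3.25, 2.39 and 2.82 CPM to 58.3, 27.9 and 15 CPM (3.58, SE 0.46, adjusted p = 0.0125). Lgals3, the sugar-binding galectin 3, rose from 6.58, 4.56 and 4.35 CPM to 49.0, 25.1 and 19.4 CPM (2.59, SE 0.33, adjusted p = 0.0125).

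Less familiar genes stood beside them. Tgm1, a transglutaminase best known from skin, was at 0.087, 0.0315 and 0.153 CPM without the transgene and at 8.57, 1.91 and 1.17 CPM with it (5.36, SE 0.85, adjusted p = 0.0144). Olfr111, annotated as an olfactory receptor on chromosome 17, went from 0.058, 0.126 and 0.184 CPM to 6.40, 1.91 and 1.74 CPM (4.74, SE 0.61, adjusted p = 0.0124), with counts that were not whole in 7 of the 12 libraries, so that part of its reads was shared with another gene or locus. The other genes of the 20 largest increases were Pdcd1, Cxcl10, Mx1, Cd72, Ccl3, Ccl4, Timp1, Hcar2, Cd22, Siglecf, Cd180 and human SOD1.

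Reference promoters of these genes, 250 bases before to 50 bases after an annotated start, were available from RefSeq on GRCm38.p6. They are printed for Cst7 and Mmp12, the 2 largest increases whose promoter held the PU.1 motif, and for Cxcl10, an interferon-induced chemokine whose promoter held the interferon motif. The sequences are written 5′ to 3′ along the gene, with motif letters on either strand in capitals: AGGAAGT for Cst7 and Mmp12, and TGACTCA and the interferon-stimulated response element (ISRE) for Cxcl10.
Cst7 promoter, chr2:150570165-150570464 on the plus strand: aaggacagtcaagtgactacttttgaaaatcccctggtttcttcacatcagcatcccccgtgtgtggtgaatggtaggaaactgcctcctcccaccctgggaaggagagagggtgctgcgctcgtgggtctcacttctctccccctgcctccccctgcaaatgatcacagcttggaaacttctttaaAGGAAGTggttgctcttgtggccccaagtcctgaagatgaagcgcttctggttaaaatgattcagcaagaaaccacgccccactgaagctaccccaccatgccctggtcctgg
Mmp12 promoter, chr9:7344147-7344446 on the plus strand: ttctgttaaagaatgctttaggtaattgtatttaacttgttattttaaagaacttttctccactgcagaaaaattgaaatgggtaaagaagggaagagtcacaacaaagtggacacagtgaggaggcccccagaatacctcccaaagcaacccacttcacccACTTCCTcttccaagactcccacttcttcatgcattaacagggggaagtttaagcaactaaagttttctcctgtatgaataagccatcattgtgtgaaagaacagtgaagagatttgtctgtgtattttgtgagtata
Cxcl10 promoter, chr5:92348840-92349139 on the minus strand: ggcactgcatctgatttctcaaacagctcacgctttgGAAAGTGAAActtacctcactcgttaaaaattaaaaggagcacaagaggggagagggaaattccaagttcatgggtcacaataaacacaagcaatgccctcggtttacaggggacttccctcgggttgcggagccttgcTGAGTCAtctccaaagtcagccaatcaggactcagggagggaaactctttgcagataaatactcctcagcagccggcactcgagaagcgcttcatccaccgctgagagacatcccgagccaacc
The 7 letters AGGAAGT, a core recognised by the myeloid factor PU.1, occurred on either strand in 23.2% of 396 promoters of the genes that rose, in 5.19% of 77 promoters of the genes that fell, in 8.71% of 18122 promoters of tested genes and in 9.35% of all 32851 promoters. The E-box CACGTG occurred in 7.07% of the promoters of genes that rose and 8.9% of those tested. TGACTCA, the AP-1 motif, occurred in 6.82% and 4.05%. The ISRE occurred in 5.05% and 3.14%. A gene can have several promoters, and 313 of the 422 genes that rose and 55 of the 76 that fell had at least 1. These letters are a description and do not show binding. The printed promoters are examples that held a motif. Tgm1, a larger increase than Cxcl10, also held the ISRE in a promoter. Another Mmp12 promoter held the AP-1 motif and no PU.1 motif. Among the 20 largest increases, Itgax and Gpnmb held AP-1, and Cd72 and Timp1 held PU.1. Olfr111, Clec7a, Ccl3, Pdcd1, Cd22, Siglecf, Lgals3 and Cd180 held none of these motifs.

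Genes that mark microglia and macrophages in general rose almost as a group. Of 17 such genes, 16 passed the test as higher and 0 as lower, with a median log2 fold change of 1.36. Csf1r, the growth factor receptor on which microglia depend, was at 95.6, 98.7 and 102 CPM without the transgene and at 237, 148 and 167 CPM with it (0.89, SE 0.15, adjusted p = 0.0146). Ctss, the protease cathepsin S, was at 132, 106 and 132 CPM and at 460, 227 and 232 CPM (1.31, SE 0.24, adjusted p = 0.0206). In both genes the 3 transgenic libraries lay above all controls, replicate 1 furthest. The smallest p-values in the list belonged to Cd53, a tetraspanin (log2 fold change 1.26, adjusted p = 0.0125), Ly86, a partner of Toll-like receptors (1.51, adjusted p = 0.0125), and Laptm5, a lysosomal membrane protein (1.32, adjusted p = 0.0125). Without transgenic replicate 1 the list still had 16 calls and a median of 0.97. Without control replicate 1 or 2 it had 0 calls, with medians of 1.44 and 1.25.

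Of 12 homeostatic genes, 7 passed as higher and 0 as lower (median 0.65), and all 12 had a positive fold change. The list held 3 calls without transgenic replicate 1 and 4 without control replicate 3. Cx3cr1, the receptor for the neuronal ligand fractalkine, was at 43.0, 41.7 and 47.0 CPM without and 133, 81.3 and 74.2 CPM with the transgene (1.13, SE 0.19, adjusted p = 0.0155). Fcrls, an Fc receptor-like protein, gave the largest difference of the list, from 11.8, 11.5 and 9.92 CPM to 94.9, 35.2 and 28.9 CPM (2.26, SE 0.40, adjusted p = 0.0206). P2ry12, the purine receptor that guides resting processes, was at 32.2, 29.4 and 30.3 CPM and at 43.1, 40.1 and 48.1 CPM (0.52, SE 0.12, adjusted p = 0.0493). For P2ry12 the highest library was replicate 3 and not replicate 1. Tmem119, a marker named after its values were seen, overlapped between the groups (27.4, 21.5 and 19 CPM against 29.7, 21.9 and 29.2 CPM, log2 fold change 0.25, adjusted p = 0.496). Sall1, a transcription factor that maintains microglial identity and is also expressed by other cells of the cord, had a log2 fold change of 0.23 and an adjusted p of 0.147.

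Of 20 genes of disease-associated microglia, 17 passed as higher and 0 as lower, with a median log2 fold change of 1.72 (1.17 without transgenic replicate 1) and 11 calls without control replicate 3. Trem2, the lipid-sensing receptor, was at 12.8, 10.1 and 10.5 CPM without and 60.2, 27.6 and 28.1 CPM with the transgene (1.79, SE 0.26, adjusted p = 0.0125). Its adaptor Tyrobp was at 20.6, 14.7 and 18.6 CPM and at 89.2, 41.6 and 41.9 CPM (1.68, SE 0.27, adjusted p = 0.0153). Apoe, a lipid carrier that astrocytes also make, was at 1274, 1137 and 1133 CPM and at 2675, 1486 and 1705 CPM (0.73, SE 0.17, adjusted p = 0.0466). Receptor and adaptor differed by similar amounts, with no overlap between groups, and Apoe differed least of these 3.

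**Figure D2:**
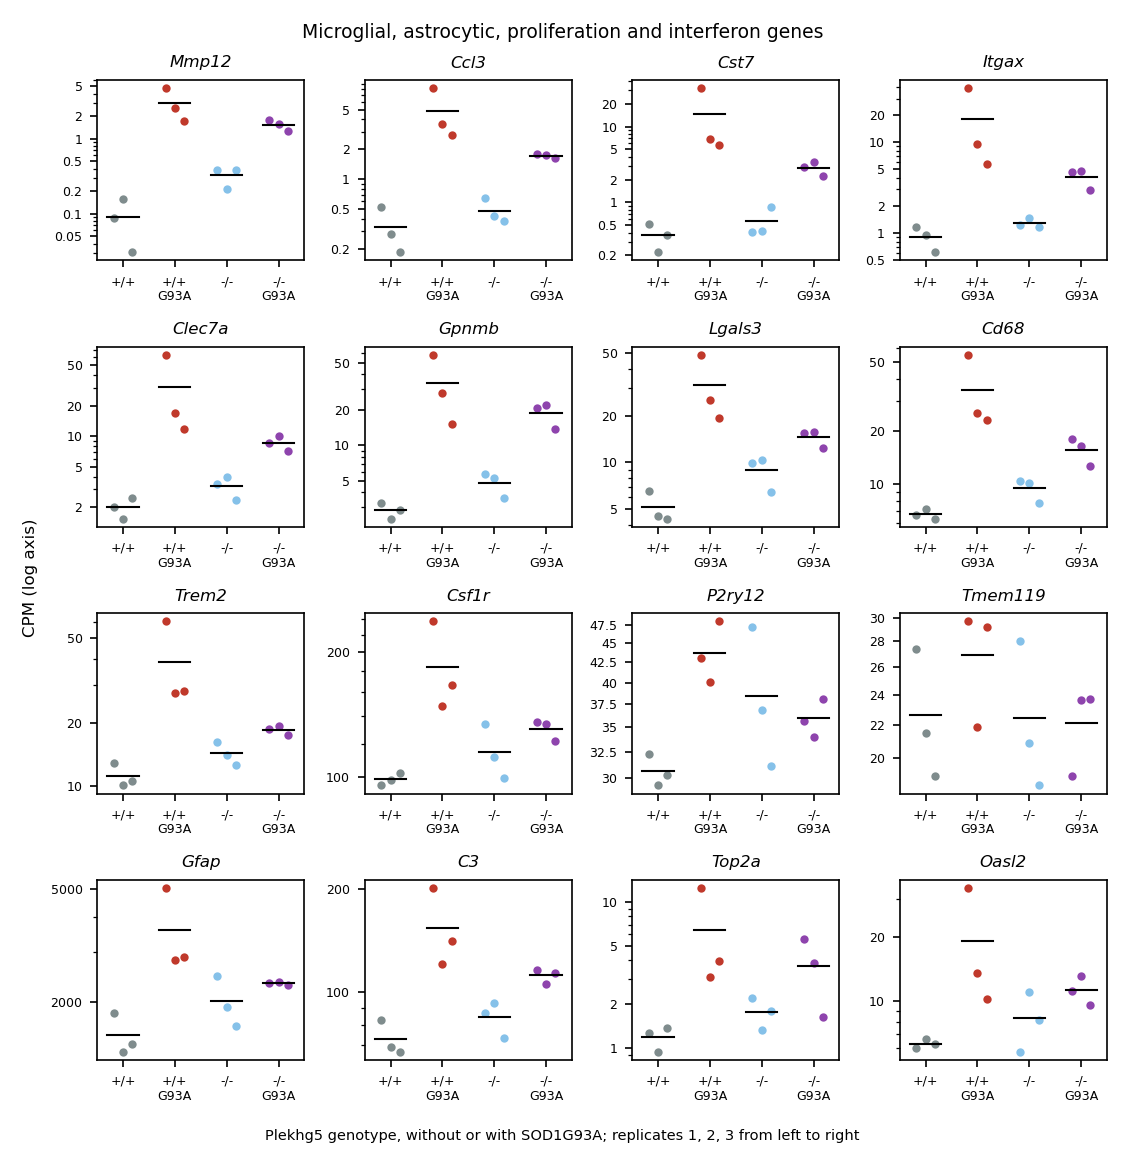
Levels of 16 genes in CPM on a log axis for the 4 genotypes; each point is 1 library, replicates 1 to 3 stand from left to right, and the line is the mean of 3. In Plekhg5+/+ mice, SOD1G93A libraries lie above all controls in every panel but that of Tmem119, and replicate 1 is the highest in every panel but that of P2ry12.

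Lists of other leukocytes were short and held at most 1 call each, where 2.09% of all genes tested were called higher. Of 7 tested genes (8 listed) of border macrophages, only Ms4a7 passed the test (0.145, 0.283 and 0.214 CPM without, 1.61, 1.25 and 1.02 CPM with the transgene; log2 fold change 2.58, SE 0.41, adjusted p = 0.0125), while the list's median was -0.25, and between -0.62 and -0.04 when 1 library was left out. Mrc1, the mannose receptor, was at 4.99, 4.66 and 3.49 CPM and at 4.50, 2.81 and 4.80 CPM, and Lyve1, a hyaluronan receptor, was at 3.07, 2.55 and 1.07 CPM and at 1.06, 0.627 and 1.98 CPM. Both overlapped between the groups. Of 10 genes of monocytes and neutrophils none passed the test and none had an unadjusted p under 0.05 (DESeq2 and limma voom also called 0), although the median was 1.21: S100a9, a calcium-binding protein of neutrophils, ranged from 5.57 to 26.6 CPM without and from 16.3 to 52.9 CPM with the transgene. Of 14 genes of T and NK cells, 8 were tested and 1 passed, the chemokine Ccl5 (0.348, 0.189 and 0.214 CPM without, 2.05, 1.02 and 0.81 CPM with the transgene; log2 fold change 2.34, SE 0.39, adjusted p = 0.0146), and the T cell kinase Lck had a log2 fold change of 1.03 and an adjusted p of 0.0676. Of 7 tested genes of B cells 1 passed, the receptor subunit Cd79b (1.84, SE 0.41, adjusted p = 0.0366). The T and NK list had a median of 1.125, with 7 positive fold changes and 4 genes at an unadjusted p under 0.05. The B cell list had a median of 1.04, with 7 positive fold changes and 3 genes at an unadjusted p under 0.05. Over all genes tested, 18.2% had such a p.

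Receptors that sense lipids, sialic acid, antibodies and microbial products were among the genes that rose. Of 16 tested receptors of the Siglec and Trem families and their partners (19 listed), 9 passed as higher and 0 as lower (median 1.6). Without transgenic replicate 1 the list held 4 calls and a median of 1.05. Cd22, an inhibitory Siglec known from B cells, was at 0.493, 0.567 and 0.582 CPM without and 7.67, 2.54 and 2.55 CPM with the transgene (2.95, SE 0.41, adjusted p = 0.0125). Siglecf, another sialic acid receptor, was at 0.522, 0.692 and 0.429 CPM and at 7.67, 2.51 and 2.25 CPM (2.91, SE 0.44, adjusted p = 0.0125). Neither gene overlapped between groups. Of 19 Toll-like receptors and adaptors, 7 passed as higher and 0 as lower (median 0.76, or 0.35 without transgenic replicate 1). They included Tlr2, a receptor for bacterial lipoproteins (4.73, 4.53 and 4.87 CPM without, 21.8, 11.2 and 9.78 CPM with the transgene; 1.6, SE 0.24, adjusted p = 0.0125), and Unc93b1, the chaperone of endosomal Toll-like receptors (16.1, 16.4 and 17.1 CPM, 46.7, 28.6 and 28.5 CPM; 1.07, SE 0.16, adjusted p = 0.0125). Tlr3, a sensor of double-stranded RNA, overlapped between the groups (log2 fold change 0.35, adjusted p = 0.145). Of 6 Fc receptor genes 2 passed, the inhibitory Fcgr2b (1.88, SE 0.36, adjusted p = 0.0242) and the signalling chain Fcer1g (1.56, SE 0.28, adjusted p = 0.0197).

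Of 7 subunits and partners of the phagocyte NADPH oxidase, which makes superoxide, 5 passed as higher and 0 as lower (median 1.37), and 2 did so without transgenic replicate 1 or without control replicate 3. Cyba, its membrane subunit, was at 5.51, 5.19 and 5.21 CPM without and at 18.9, 10.3 and 12.7 CPM with the transgene (1.40, SE 0.19, adjusted p = 0.0124), and Hvcn1, the proton channel that balances its charge, was at 3.57, 3.75 and 3.46 CPM and at 18.5, 8.98 and 8.07 CPM (1.72, SE 0.25, adjusted p = 0.0125). The spread among controls was small in both, and no library overlapped. Of 22 complement genes, 10 passed as higher and 0 as lower (median 0.64, or 0.41 without transgenic replicate 1), and 5 had negative fold changes. C3, the central component, was at 82.7, 69.0 and 66.7 CPM and at 202, 121 and 141 CPM (1.09, SE 0.16, adjusted p = 0.0125). C4b, an upstream component made by glia, was at 133, 114 and 104 CPM and at 464, 253 and 225 CPM (1.43, SE 0.24, adjusted p = 0.0177). C3ar1, the receptor for the C3a fragment, was at 3.65, 3.65 and 3.37 CPM and at 21.7, 9.90 and 7.98 CPM (1.89, SE 0.32, adjusted p = 0.0152).

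Of 19 tested chemokines (24 listed), 7 passed as higher and 0 as lower (median 1.24, or 0.67 without transgenic replicate 1). Ccl3 and Ccl4, neighbouring genes on chromosome 11 that attract leukocytes, had the third and the fifth smallest p-value of all genes. They overlap on opposite strands, and counting used the strand. Ccl3 was at 0.522, 0.283 and 0.184 CPM without and 8.23, 3.56 and 2.79 CPM with the transgene (3.86, SE 0.44, adjusted p = 0.0075). Ccl4 was at 0.174, 0.252 and 0.276 CPM and at 3.88, 1.55 and 1.56 CPM (3.30, SE 0.41, adjusted p = 0.0103). Cx3cl1, the neuronal ligand of Cx3cr1, had a log2 fold change of -0.14 and an adjusted p of 0.274. Receptor and ligand of this pair thus gave fold changes of opposite sign, and only the receptor passed the test. Of 15 tested cytokine and inflammasome genes (18 listed) 4 passed as higher, Il1rn, the interleukin 1 receptor antagonist (2.69, adjusted p = 0.0152), Osm, oncostatin M (2.17, adjusted p = 0.0165), Tgfb1, an anti-inflammatory growth factor (1.04, adjusted p = 0.0198), and Il33, an alarmin of oligodendrocytes and astrocytes (0.44, adjusted p = 0.0465). Of 11 tested immune checkpoint genes (13 listed) 6 passed as higher (median 0.58), among them Pdcd1, which encodes PD-1 (0.319, 0.157 and 0.245 CPM without, 6.30, 1.72 and 1.62 CPM with the transgene; 3.71, SE 0.58, adjusted p = 0.0125), and Lag3 (5.95, 5.85 and 5.39 CPM, 37.0, 15.4 and 12.0 CPM; 1.91, SE 0.34, adjusted p = 0.0198). Lck, the T cell kinase above, stayed at or below 1.75 CPM in all 6 libraries.

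Of 35 lysosomal enzymes and membrane proteins, 16 passed as higher and 0 as lower (median 0.45, and 8 calls without control replicate 3), and 34 had a positive fold change against 49.7% of all genes tested. Cd68, a lysosomal glycoprotein of phagocytes, was at 6.67, 7.21 and 6.31 CPM without and 54.9, 25.4 and 23.1 CPM with the transgene (2.36, SE 0.30, adjusted p = 0.0125). Ctsb, the protease cathepsin B, was at 728, 699 and 685 CPM and at 1326, 900 and 885 CPM (0.56, SE 0.12, adjusted p = 0.0365). Psap, which encodes the precursor of the saposins, was at 1464, 1433 and 1407 CPM and at 1726, 1541 and 1565 CPM, without overlap but short of the threshold (0.17, SE 0.06, adjusted p = 0.163). The arylsulfatase Arsb rose by 0.47 (SE 0.07, adjusted p = 0.0125) and the glucosaminidase Naglu by 1.10 (SE 0.16, adjusted p = 0.0125). Atp6v0d2, a proton pump subunit of macrophages and osteoclasts, was at 0, 0.0315 and 0.0612 CPM and at 0.901, 0.66 and 0.39 CPM and also passed (adjusted p = 0.0125). No fold is given for it, since its controls held few counts.

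Related programmes of lipid handling and protein turnover held few calls. Of 25 genes of lipid uptake, efflux and storage 2 passed as higher, Apoe and the scavenger receptor Msr1 (1.55, SE 0.34, adjusted p = 0.034), with a median of 0.17, or 0.014 without transgenic replicate 1, where neither was called. Of 22 genes of cholesterol synthesis none passed (DESeq2 called 1, limma voom 0, and 2 had an unadjusted p under 0.05), with a median of -0.11 and 4 positive fold changes. Of 24 core autophagy genes none passed (DESeq2 called 1, limma voom 0, and 5 had an unadjusted p under 0.05), with a median of -0.05: Sqstm1, the cargo receptor p62, was at 486, 436 and 412 CPM without and at 458, 427 and 469 CPM with the transgene. Tbk1, an autophagy kinase and ALS gene, was at 48.1, 49.7 and 50.3 CPM and at 43.1, 41.8 and 42.4 CPM, without overlap (-0.22, SE 0.05, adjusted p = 0.0558). The 31 proteasome genes and the 51 genes of oxidative phosphorylation held 0 calls in edgeR, DESeq2 and limma voom and 0 genes at an unadjusted p under 0.05, with medians of -0.02 and -0.03. Among 18 targets of the oxidative stress factor Nrf2 none passed (DESeq2 called 1, limma voom 0, and 3 had an unadjusted p under 0.05), the lowest p belonging to the haem oxygenase Hmox1 (8.03, 9.13 and 6.06 CPM without, 23.7, 10.3 and 10.4 CPM with the transgene; 0.94, SE 0.29, adjusted p = 0.108).

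Interferon-stimulated genes had a large median difference and few calls. All 28 had a positive fold change, against 49.7% of all genes tested, with a median of 1.30. An unadjusted p under 0.05 was found in 24, against 18.2% of all genes. Only Mx1, annotated as a transcribed pseudogene in this strain's reference, passed the threshold (0.232, 0.189 and 0.184 CPM without, 4.91, 1.06 and 0.54 CPM with the transgene, log2 fold change 3.40, SE 0.77, adjusted p = 0.0442). Oasl2, an antiviral sensor, was at 6.03, 6.61 and 6.31 CPM and at 33.8, 13.5 and 10.3 CPM (1.6, SE 0.39, adjusted p = 0.0602). Rsad2, which encodes the antiviral enzyme viperin, was at 2.35, 2.74 and 2.88 CPM and at 15.5, 5.64 and 4.14 CPM (1.67, SE 0.42, adjusted p = 0.0609). Both just missed the threshold, with the spread among transgenic libraries far above that among controls. The list held 19 calls in DESeq2 and 0 in limma voom. It held 16 without transgenic replicate 2, 17 without transgenic replicate 3, and 0 without any 1 of the 3 controls or transgenic replicate 1. Its median was 0.54 without transgenic replicate 1 and between 1.23 and 1.53 without any other library. Genes of antigen presentation all had positive fold changes. Of 15 genes of MHC class I, 4 passed as higher (median 0.93, or 0.45 without transgenic replicate 1, and 0 to 11 calls when 1 library was left out), including the light chain B2m (110, 104 and 101 CPM without, 305, 162 and 156 CPM with the transgene; 0.98, SE 0.20, adjusted p = 0.0301) and the peptide transporter Tap1 (1.04, SE 0.21, adjusted p = 0.0234). Of 10 genes of MHC class II (median 0.56, or 0.29 without transgenic replicate 1), 2 passed, H2-Oa (2.03, SE 0.32, adjusted p = 0.0125) and H2-Ob (1.32, SE 0.27, adjusted p = 0.026), which together form a regulator of peptide loading, while the invariant chain Cd74 overlapped between the groups (12.1, 15.6 and 10.2 CPM against 28.2, 11.6 and 18.9 CPM, adjusted p = 0.27).

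All 23 proliferation genes had a positive fold change (median 0.88) and 18 had an unadjusted p under 0.05, against 49.7% and 18.2% of all genes. The 4 that passed were the cyclin Ccnb1 (3.10), the replication helicase subunits Mcm6 (0.61) and Mcm3 (0.79) and the kinase Cdk1 (1.35), with adjusted p between 0.0198 and 0.0414. The counts of Ccnb1 were not whole in 11 of 12 libraries. Cdk1 was at 0.841, 0.755 and 1.07 CPM without and at 3.51, 1.52 and 1.77 CPM with the transgene. Top2a, a topoisomerase of dividing cells, was at 1.28, 0.944 and 1.38 CPM and at 12.4, 3.07 and 3.93 CPM and missed the threshold (2.43, SE 0.57, adjusted p = 0.0518). Replicate 1 again stood highest, and without it the list had 1 call and a median of 0.50. Without control replicate 3 it also had 1 call, and without transgenic replicate 2 or 3 it had 9 and 8. Of 18 tested myeloid transcription factors (19 listed), 4 passed as higher (median 0.35, or 0.19 without transgenic replicate 1), among them Spi1, which encodes PU.1 (3.39, 3.46 and 4.13 CPM without, 12.6, 6.57 and 7.38 CPM with the transgene; 1.27, SE 0.22, adjusted p = 0.0158), and Irf8, its partner in microglia (5.92, 5.32 and 4.47 CPM, 25.7, 12.0 and 11.4 CPM; 1.64, SE 0.28, adjusted p = 0.0165).

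**Figure D3:**
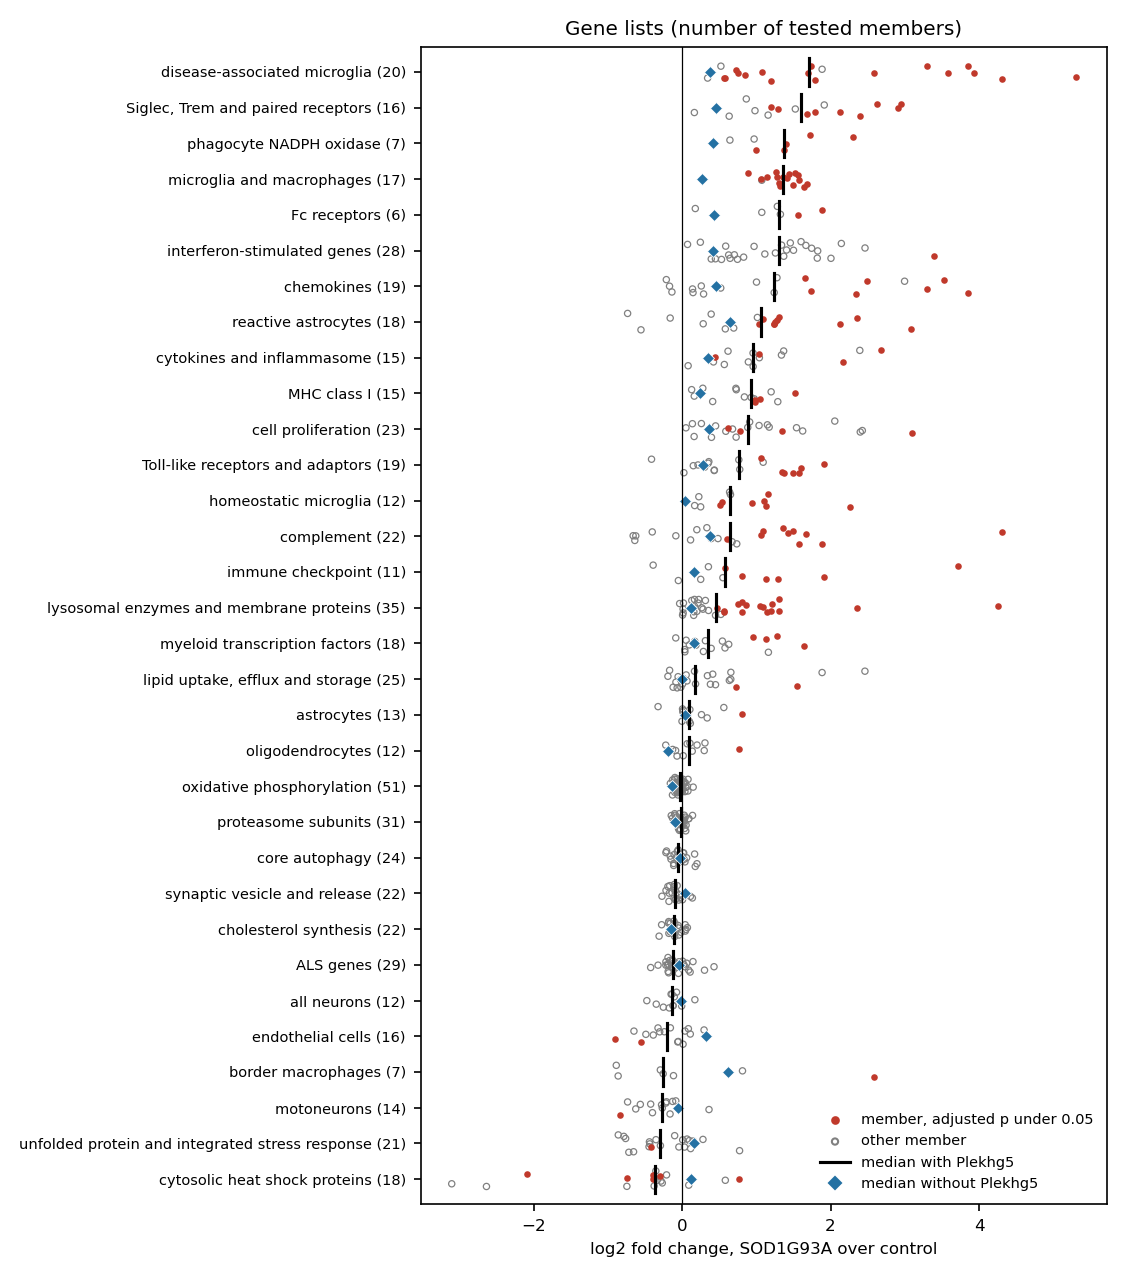
Each row is a gene list with its number of tested members, each point is a member's log2 fold change of SOD1G93A over control with Plekhg5 present, and the bar is their median; the blue diamond is the median of the same members in Plekhg5-/- mice. The largest median drawn is 1.72, for disease-associated microglia, and the lowest is -0.36, for cytosolic heat shock proteins.

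Of 18 reactive astrocyte genes 10 rose, as did 1 of 13 general astrocyte genes. The general gene was the transcription factor Sox9 (23, 23.4 and 28.7 CPM without, 57.6, 38.3 and 35.9 CPM with the transgene; 0.81, SE 0.16, adjusted p = 0.0206), and the median was 0.10. Slc1a2, the main glutamate transporter, was at 1951, 2527 and 2540 CPM and at 2625, 2465 and 1979 CPM (0.01, SE 0.11), and Glul, which encodes glutamine synthetase, had a log2 fold change of 0.01 as well. The reactive list held 0 genes that fell and had a median of 1.06, with 3 negative fold changes. Its median was 0.66 without transgenic replicate 1, and it held 5 calls without control replicate 3. Gfap, the astrocytic filament protein, was at 1828, 1333 and 1421 CPM and at 5054, 2825 and 2897 CPM (1.23, SE 0.22, adjusted p = 0.0198), and Vim, another filament protein, was at 115, 102 and 75.5 CPM and at 366, 175 and 184 CPM (1.31, SE 0.25, adjusted p = 0.0273). The lowest transgenic library exceeded the highest control in both genes. Timp1, an inhibitor of metalloproteinases that reactive astrocytes secrete, was at 0.638, 1.01 and 0.704 CPM and at 12.7, 3.56 and 3.66 CPM (3.08, SE 0.49, adjusted p = 0.014). Some of these genes, such as C3 and Cd44, are also made by microglia. Aqp4, the water channel of astrocyte endfeet, was at 687, 630 and 639 CPM and at 1304, 814 and 771 CPM (0.56, SE 0.15, adjusted p = 0.0687).

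Of 14 motoneuron genes 1 fell: Chodl, which marks fast motoneurons, was at 42.4, 41.5 and 39.5 CPM without and at 17.5, 29.3 and 22.6 CPM with the transgene (-0.83, SE 0.18, adjusted p = 0.0387). It was lower in every transgenic library, by the most in replicate 1. Of the 14 genes, 13 had a negative fold change (median -0.27) and 8 an unadjusted p under 0.05, against 18.2% of all genes. Of the 14, 7 were lower at an unadjusted p under 0.05, against 7.51% of all genes. Further, 7 were lower without overlap, against 9% of all genes. Chat, the enzyme of acetylcholine synthesis, was at 29.5, 32.6 and 30.8 CPM and at 19.6, 26.9 and 24.1 CPM (-0.40, SE 0.11, adjusted p = 0.0776). Nefh, the heavy neurofilament chain of large axons, was at 1139, 1250 and 1161 CPM and at 802, 1057 and 788 CPM (-0.42, SE 0.11, adjusted p = 0.0709). Nefm, the medium chain and a member of the general neuronal list below, was at 2099, 2202 and 2095 CPM and at 1410, 1846 and 1347 CPM (-0.47, SE 0.12, adjusted p = 0.0586). None of the 3 overlapped between groups, and replicate 2 was the transgenic library nearest to the controls in each. The call of the motoneuron list was lost without control replicate 1, 2 or 3 and without transgenic replicate 1 or 3, while 4 of its genes were called without transgenic replicate 2.

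Other neuronal lists held no calls but for Atf3. Of 12 general neuronal genes none passed (DESeq2 called 2, limma voom 0, and 5 had an unadjusted p under 0.05), with a median of -0.13. In this list 11 genes had a negative fold change and 4, among them Nefm, were lower without overlap, against 9% of all genes. Snap25, a protein of vesicle fusion, overlapped between groups (-0.17, adjusted p = 0.197). Of 15 interneuron genes none passed (0 in DESeq2 and limma voom, 2 at an unadjusted p under 0.05), with a median of -0.03. Of 22 genes of synaptic vesicles none passed (0 in DESeq2 and limma voom, 3 at an unadjusted p under 0.05), with 3 positive fold changes. Of 23 receptors for glutamate, GABA and glycine none passed (0 in DESeq2 and limma voom, 7 at an unadjusted p under 0.05), and Gria2, an AMPA receptor subunit, was at 277, 303 and 312 CPM without and at 257, 249 and 247 CPM with the transgene (-0.25, SE 0.08, adjusted p = 0.138). Of 15 genes of the axon injury response 1 passed, the transcription factor Atf3 (3.54, 2.64 and 1.99 CPM without, 14.3, 6.40 and 4.77 CPM with the transgene; 1.64, SE 0.38, adjusted p = 0.0452). Of 29 genes linked to ALS other than the transgene none passed (DESeq2 called 3, limma voom 0, and 11 had an unadjusted p under 0.05), with a median of -0.12. In the ALS list 10 genes were lower without overlap, against 9% of all genes.

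**Figure D4:**
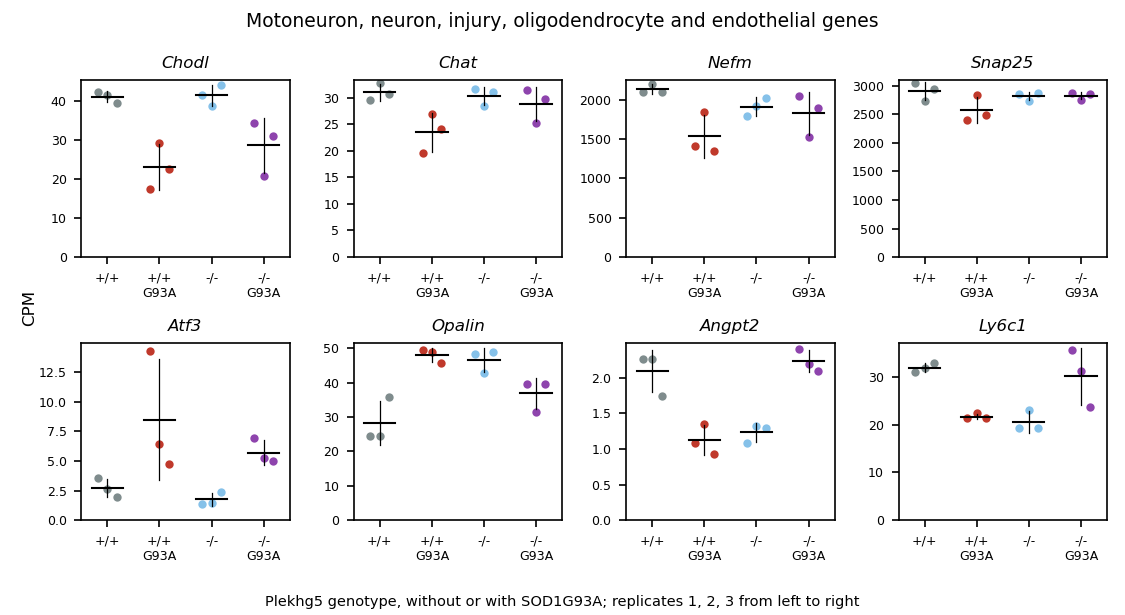
Levels of 8 genes in CPM for the 4 genotypes; each point is 1 library, the line is the mean of 3 and the thin bar is the SD. Chodl, Chat and Nefm are lower in all 3 Plekhg5+/+ SOD1G93A libraries than in the Plekhg5+/+ libraries, and Opalin, Angpt2 and Ly6c1 move in opposite directions with and without Plekhg5.

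Among oligodendrocyte genes 1 of 12 passed. Opalin, a membrane protein of myelinating oligodendrocytes on chromosome 19, was at 24.4, 24.6 and 35.7 CPM without and at 49.4, 48.8 and 45.8 CPM with the transgene (0.76, SE 0.13, adjusted p = 0.0165). Mbp, a main gene of compact myelin, had a log2 fold change of 0.02 and overlapped between the groups. For Opalin, replicate 1 was not set apart from replicates 2 and 3. Of 12 genes of oligodendrocyte progenitors none passed (0 in DESeq2 and limma voom, 4 at an unadjusted p under 0.05). Among 16 endothelial genes 2 fell, Angpt2, a vessel-destabilising ligand of Tie2 (2.26, 2.27 and 1.75 CPM without, 1.09, 1.35 and 0.93 CPM with the transgene; -0.90, SE 0.18, adjusted p = 0.0257), and Ly6c1, a surface protein of brain endothelium (31.0, 31.8 and 32.9 CPM, 21.4, 22.3 and 21.4 CPM; -0.56, SE 0.12, adjusted p = 0.0361). The list's median was -0.20 (-0.12 without control replicate 2) and 7 members were lower without overlap, against 9% of all genes. Both calls were absent without control replicate 1 or 2 and without transgenic replicate 1 or 3, and limma voom called neither. The call of Opalin was absent without control replicate 1 or 2. In pericytes and smooth muscle 1 of 10 passed, the contractile protein Tagln (0.94, SE 0.20, adjusted p = 0.034), and in meningeal fibroblasts 1 of 11 passed, the matrix protein Thbs2 (0.88, SE 0.19, adjusted p = 0.0345), with medians of 0.02 and -0.03 that changed sign with the libraries used. No gene passed among 10 ependymal genes and 10 Schwann cell genes (0 in DESeq2 and limma voom, 3 and 0 at an unadjusted p under 0.05). Lists of sensory ganglion neurons, skeletal muscle, adipocytes, red cells, metallothioneins, neuropeptides and clock genes also held 0 calls in edgeR, DESeq2 and limma voom. Of 13 purine receptors and ectoenzymes 2 rose, P2ry12 and the UDP receptor P2ry6, and of 16 tested metalloproteinases and inhibitors 3 rose, Mmp12, Timp1 and Mmp19.

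Of 76 genes that fell (0.377% of the genes tested), 5 were cytosolic heat shock genes. Of 18 cytosolic heat shock genes, 5 passed as lower and 1, the small heat shock protein Hspb6, as higher (10.7, 9.54 and 11.2 CPM without, 21.9, 14.8 and 17.0 CPM with the transgene; 0.77, SE 0.13, adjusted p = 0.0149). The list's median was -0.36, and 11 members were lower without overlap, against 9% of all genes. It held 13 calls without control replicate 3, 2 without transgenic replicate 1 and 3 without transgenic replicate 3. Hsph1, a large co-chaperone of Hsp70 on chromosome 5, had the smallest p of all genes that fell: it was at 574, 464 and 365 CPM without and at 264, 305 and 272 CPM with the transgene (-0.74, SE 0.12, adjusted p = 0.0146). Hsp90aa1, the inducible Hsp90, was at 1559, 1291 and 1235 CPM and at 1003, 1136 and 977 CPM (-0.39, SE 0.08, adjusted p = 0.0338). Hsf1, the master regulator of this response, was at 35.8, 33.5 and 32.3 CPM and at 26.5, 28.4 and 27.6 CPM (-0.30, SE 0.06, adjusted p = 0.0264). In each of these genes control replicate 1 was the highest and control replicate 3 the lowest of the controls, and the transgenic libraries lay closer together. The inducible Hsp70 gene Hspa1a, named after its values were seen, was at 99.8, 69.8 and 16.8 CPM against 9.41, 8.98 and 11.6 CPM (-2.63, SE 0.59, adjusted p = 0.0537).

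Further stress genes showed control replicate 3 below the other controls. Of 21 genes of the unfolded protein and integrated stress responses 1 passed, Hyou1, a chaperone of the endoplasmic reticulum (130, 131 and 106 CPM without, 93.4, 93.7 and 86.2 CPM with the transgene; -0.42, SE 0.09, adjusted p = 0.034), with a median of -0.29. Without control replicate 3 that list held 11 calls and a median of -0.45, and without control replicate 1 it held 0 calls and a median of -0.16. Hspa5, its main chaperone BiP, was at 651, 504 and 303 CPM and at 296, 255 and 253 CPM (-0.86, SE 0.22, adjusted p = 0.0639). Of 12 genes that respond to glucocorticoids none passed (DESeq2 called 3, limma voom 1, and 4 had an unadjusted p under 0.05), all 12 had a negative fold change, and Zbtb16, a transcription factor, was at 68.4, 64.2 and 36.7 CPM and at 18.1, 17.5 and 17.2 CPM (-1.68, SE 0.57, adjusted p = 0.16). Of 12 immediate early genes none passed (0 in DESeq2 and limma voom, 4 at an unadjusted p under 0.05). In Plekhg5-/- mice Hsph1 was at 272, 290 and 283 CPM and Hspa5 at 263, 261 and 292 CPM, within the range of the Plekhg5+/+ SOD1G93A libraries. In Plekhg5-/- SOD1G93A mice Hsph1 was at 341, 330 and 305 CPM and Hspa5 at 365, 383 and 281 CPM. Replicates 1 and 2 of that genotype lay above that range in both genes. Zbtb16 was at 77.7 CPM in Plekhg5-/- replicate 1, against 20.2 and 16.3 CPM in replicates 2 and 3. Without control replicate 1 or 2 the heat shock list held 0 calls, with medians of -0.26 and -0.32, and without control replicate 3 it held 13. limma voom called 3 genes of the list and DESeq2 called 14. The part of the high control libraries in the result was not tested.

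**Figure D5:**
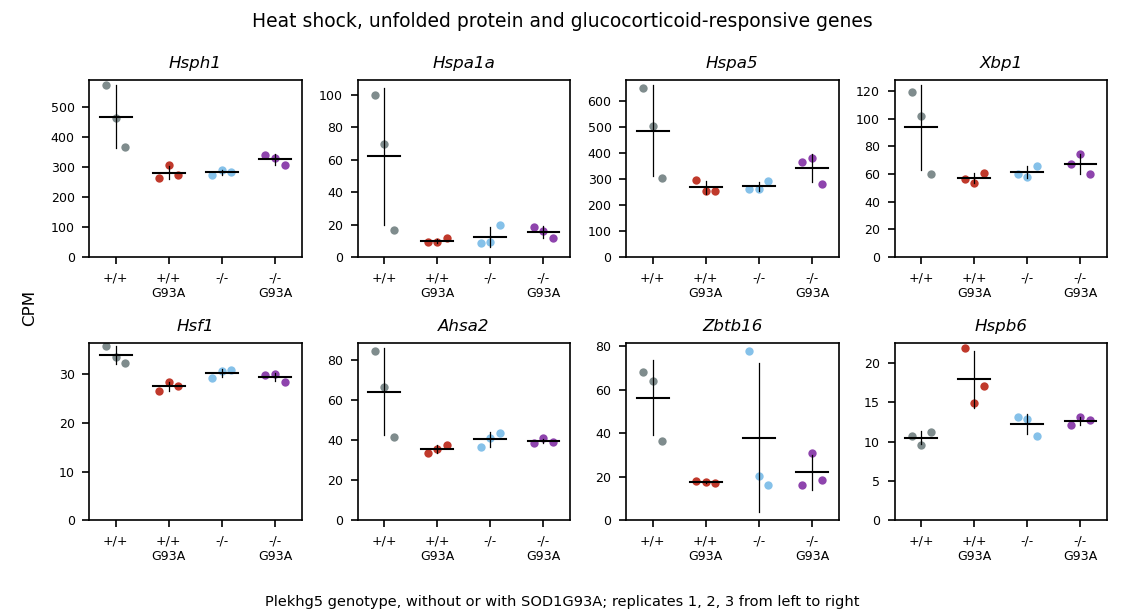
Levels of 8 genes in CPM for the 4 genotypes; each point is 1 library, replicates 1 to 3 stand from left to right, the line is the mean of 3 and the thin bar is the SD. Plekhg5+/+ replicate 1 is the highest and replicate 3 the lowest of its group in Hsph1, Hspa1a, Hspa5, Xbp1, Hsf1, Ahsa2 and Zbtb16, and Zbtb16 is also high in 1 Plekhg5-/- library, at 77.7 CPM.

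Serpina3f, a serine protease inhibitor, fell from 4.23, 1.29 and 0.306 CPM to 0.248, 0.066 and 0.03 CPM (-4.05, SE 0.94, adjusted p = 0.0479), with counts that were not whole in 7 of 12 libraries. Hspa1l, a testis-enriched Hsp70 gene next to Hspa1a, fell from 7.31, 5.54 and 2.08 CPM to 1.43, 1.06 and 1.02 CPM (-2.09, SE 0.42, adjusted p = 0.026), with counts not whole in 11 libraries. Ahsa2, related to an activator of Hsp90, fell from 84.4, 66.7 and 41.7 CPM to 33.7, 35.6 and 37.8 CPM (-0.85, SE 0.19, adjusted p = 0.0372). All 3 were highest in control replicate 1. Across the 76 genes that fell, control replicate 1 was the highest control in 33, replicate 2 in 37 and replicate 3 in 6, and replicate 3 was the lowest in 49. Others did not follow that order: Lifr, a receptor for leukemia inhibitory factor, was at 103, 111 and 105 CPM and at 83.7, 87.8 and 77.8 CPM (-0.36, SE 0.06, adjusted p = 0.0155), and Ppp1r13b, a regulator of p53, was at 83.6, 88.1 and 82.6 CPM and at 64.9, 72.2 and 67.1 CPM (-0.32, SE 0.05, adjusted p = 0.0149). Both had controls within a narrow range and no overlap. Stac3, a protein of muscle excitation, and Slco4a1, an organic anion transporter, fell by 0.84 and 0.79 on the log2 scale (adjusted p = 0.0442 and 0.0402).

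In mice without Plekhg5 the same transgene was tested on libraries that share none with the groups compared above, apart from the common estimate of spread. Y-linked transcripts were present in 2 of 3 Plekhg5-/- libraries and in 1 of 3 Plekhg5-/- SOD1G93A libraries. There 1 gene passed the threshold, human SOD1 (0.00496% of genes; DESeq2 called 42 or 44 and limma voom 9), and 1084 genes had an unadjusted p under 0.05 (5.38%). Of the 422 genes that rose with Plekhg5 present, 385 had a positive fold change without it, where 48.3% of all genes tested were positive, and 184 were higher without overlap, against 7.25% of all genes. Their median log2 fold change was 0.27 without Plekhg5, but they were chosen for a large value with Plekhg5, so the 2 medians do not estimate a difference. Of the 76 that fell, 44 were negative without Plekhg5, where 48.3% of all genes tested were positive. Of these 76, 6 were lower without overlap, against 5.22% of all genes, and 9 were higher without overlap, against 7.25%. Mmp12 was at 0.38, 0.211 and 0.379 CPM in Plekhg5-/- mice and at 1.76, 1.58 and 1.27 CPM in Plekhg5-/- SOD1G93A mice (2.23, adjusted p = 0.27), and Gpnmb was at 5.71, 5.27 and 3.56 CPM and at 20.6, 21.9 and 13.8 CPM (1.94, adjusted p = 0.45). Atf3 had a log2 fold change of 1.69 without Plekhg5 (adjusted p = 0.45) and 1.64 with it. The medians of the lists without Plekhg5 were 0.38 for disease-associated microglia, 0.27 for general microglia, 0.65 for reactive astrocytes and -0.06 for motoneurons.

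The difference of the transgene's effect between the 2 Plekhg5 genotypes was tested gene by gene. In edgeR 0 genes passed, with a smallest adjusted p of 0.235 and 1824 genes at an unadjusted p under 0.05 (9.05%), while DESeq2 called 111 with a prior on fold changes and 98 without, and limma voom 0. The smallest p belonged to Angpt2, which with the transgene was lower in Plekhg5+/+ mice (above) and higher without Plekhg5, at 1.08, 1.33 and 1.29 CPM in Plekhg5-/- mice against 2.4, 2.19 and 2.10 CPM in Plekhg5-/- SOD1G93A mice (difference of the log2 fold changes 1.75, adjusted p = 0.235). Ly6c1, the other endothelial gene, behaved likewise, at 19.2, 23.1 and 19.2 CPM against 35.5, 31.1 and 23.6 CPM (1.11, adjusted p = 0.235). Opalin went the opposite way, at 48.2, 42.7 and 48.9 CPM against 39.5, 31.5 and 39.5 CPM (-1.10, adjusted p = 0.329). In all 3 genes the range of the Plekhg5-/- libraries overlapped that of the Plekhg5+/+ SOD1G93A libraries. The summed level of the 10 Schwann cell genes was 269 to 327 CPM in Plekhg5-/- mice and 552 to 759 CPM in Plekhg5-/- SOD1G93A mice, and their part in these differences was not tested.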

How the data were processed

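Spinal cord RNA was sequenced with poly-A selected, strand-specific libraries, 3 libraries for each of 4 genotypes (12 in all). Per the labels and the methods of the study, the authors demultiplexed with bcl2fastq 2.20.0.422, trimmed with cutadapt 2.4, mapped with STAR 2.7.2b to GRCm38.p6 plus the human SOD1 cDNA and counted with featureCounts 1.6.4. Reads with several hits or genes were split, so the deposited values are expected counts per gene, not whole for part of the genes. They carry no further normalization. All columns of counts were used, with 0 left out. The exon lengths deposited with the counts entered no test, and CPM values are not corrected for gene length.

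Counts were rounded. Genes were filtered with filterByExpr, scaled by TMM and fitted with edgeR 4.0.16 (R 4.3.3), using robust quasi-likelihood fits of all 12 libraries, and Benjamini-Hochberg adjustment covered 20155 genes. Total counts ran from 30415643 to 38743628. Fold changes are log2 values with SE, and CPM values are per library. DESeq2 1.42.0, limma 3.58.1, other filters and fits without single libraries were tried as alternatives. The main edgeR fit, DESeq2 with and without a prior and limma voom were tested on simulated data. The other alternatives were not. The 56 gene lists and all tests were chosen with earlier results of these data known. Named genes were Plekhg5 and both SOD1 genes, up to 5 members of each list by p and 2 by CPM, the 20 largest called changes each way, the 10 smallest p each way and the 5 smallest p of the interaction; exceptions are marked. Per the study, the 3 libraries of a genotype are biological replicates. Replicate libraries differed by 5.42 to 25.9 times the counting noise (chi-square per degree of freedom), so each was kept as a separate sample. Same-numbered libraries were not paired: the correlation of their deviations was over 0.1 in 5 of 18 pairs. Figures were drawn with matplotlib. A few genes are not reported here.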

Additional observations from a re-analysis of the deposited data

Results flagged for a closer look

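The transgene's effect had opposite directions with and without Plekhg5, with no overlap between the 3 libraries of either genotype, in 13 of the named genes. They include all 5 genes named for the smallest p of this difference (Angpt2, Ly6c1, Gm34776, Opalin and Hsph1), so the count was partly set by that choice. The share of all genes tested with this pattern was not counted. The difference itself (without Plekhg5 minus with Plekhg5, on the log2 scale) did not pass an adjusted p under 0.05 in edgeR for any of them. Genes that were lower with the transgene when Plekhg5 was present and higher when it was absent had differences of 6.05 for Serpina3f, 2.16 for Mall, 1.75 for Angpt2, 1.15 for Sox18, 1.11 for Ly6c1, 0.95 for Hsph1, 0.68 for Hsp90b1, 0.51 for Hsp90aa1, 0.45 for Vgf, 0.37 for Hspa8 and 0.23 for Cx3cl1. The opposite order was seen in Opalin, with a difference of -1.10, and in the long non-coding RNA Gm34776, with -0.68. Groups of 3 libraries were not examined for single outlying values.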

How the results depend on the processing

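With Plekhg5 present, 498 genes were called. DESeq2 called 1205 with a prior on fold changes and 1175 without, limma voom 282, an adjusted p under 0.1 gave 1145, and a fit of only the 6 libraries gave 3. Leaving out 1 of these 6 libraries gave 2 to 768 calls. Higher genes made up 84.7% of the calls, 68.3% and 67.8% in DESeq2, 73.4% at an adjusted p under 0.1 and 59.5% without Plekhg5+/+ replicate 3. Across all 16 alternatives, each of the 498 genes that was tested kept its direction and an unadjusted p under 0.05 (448 under the stricter filter). These genes were chosen on the same libraries and their groups did not overlap, so this is no independent check. Without Plekhg5 there was 1 call, against 42 and 44 in DESeq2, 9 in limma voom, 0 with at least 10 counts in every library, 20 in the fit of 6 libraries and 1 to 8 when a Plekhg5+/+ library, with or without the transgene, was left out. The difference between Plekhg5 genotypes gave 0 calls, against 111 and 98 in DESeq2, 1 with no filter and 0 to 42 when such a library was left out. No Plekhg5-/- library was left out, so the dependence of these counts on those libraries was not tested. Where calls differed, the cause was not tested. With the replicate number as a block, 631 genes were called (533 higher and 98 lower), 462 of them shared with the 498. Since the numbers did not pair the libraries (correlations of -0.163 to 0.318), this block is no better description of the design.

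Values near zero changed sign. The median of pericytes and smooth muscle was -0.02874 in limma voom, -0.01667 with Y-linked transcripts as a covariate and -0.08294 to 0.2346 when a library was left out. That of meningeal fibroblasts was 0.002135 in limma voom and -0.2116 to 0.1406 when a library was left out. That of metalloproteinases and inhibitors was -0.05701 to 0.105. The log2 fold change of mouse Sod1 was -0.000835 and -0.001036 in DESeq2, -0.001041 with its size factors, -0.002495 with no filter and -0.004969 in the fit of 6 libraries. That of Slc1a2 was -0.03888 in limma voom, -0.0009029 with no filter and -0.004331 in the fit of 6 libraries. When a library was left out, the fold changes near zero ran from -0.06759 to 0.1233 for Sod1, -0.1091 to 0.1215 for Slc1a2, -0.144 to 0.02058 for Plekhg5, -0.05482 to 0.09334 for Mbp, -0.2671 to 0.07078 for Mrc1, -0.04246 to 0.08626 for Sqstm1 and -0.05882 to 0.05562 for Glul. Genes near 0.1 CPM rest on few counts.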
